A study of Mus musculus with 5 samples.

Results

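The 7 genes described here are the 2 receptors of the platelet-derived growth factor (PDGF) family, Pdgfra and Pdgfrb, its 4 ligands Pdgfa, Pdgfb, Pdgfc and Pdgfd, and Pdgfrl, which codes for a protein that resembles the outer part of a PDGF receptor. They were chosen by name as the whole family, not by their values, and all 7 were found among the 31053 genes counted. PDGF ligands are secreted dimers that bring receptor chains together at the cell surface and switch on their tyrosine kinase. PDGF-A and PDGF-C act mainly through the alpha receptor, PDGF-D mainly through the beta receptor, and PDGF-B through both. In liver, PDGF is known as a strong mitogen and attractant of hepatic stellate cells (HSC), the vitamin A-storing pericytes of the sinusoid that turn into collagen-producing cells after injury.

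Cells were sorted from livers of male C57BL/6J mice of the Rosa26mTmG;Col1a1-Cre line by 2 signals, the autofluorescence of stored vitamin A (VitA) and a green reporter turned on by Cre under the Col1a1 collagen promoter. All mice carried both alleles, so the reporter marks cells in which this promoter had been active at some time, not cells that make collagen at the time of sorting. The DEN+WAD mice were given the liver carcinogen diethylnitrosamine (DEN) at 10 mg/kg at 2 weeks of age and then a liquid Western alcohol diet (WAD) with 3.5% ethanol by volume for 5 months from 6 weeks of age, and the control mice were given saline and chow. Both the VitA+Col1a1+ and the VitA-Col1a1+ gate were sequenced from DEN+WAD and from chow mice, and these 4 libraries are written below without Col1a1+ (VitA+ DEN+WAD, VitA- chow). The remaining library is labelled VitA-Col1a1- and came from DEN+WAD mice. How many mice went into a library is not given in the sources used here. With 1 library per group nothing could be checked against replicates, no p-value was computed, and each interval given is a 95% interval that covers counting error only.

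A count is a unique molecular identifier (UMI), 1 captured RNA molecule, and a level is a gene's UMIs per 1000000 UMIs of the library or cell group (CPM). The libraries held from 259 to 10481 cell barcodes and from 6145748 to 149936344 UMIs, so that 3 UMIs, the floor used here for a count of 0, came to between 0.0200 and 0.488 CPM. Chow libraries were the smallest in cells and the deepest per cell. At most 21 barcodes were shared by any pair of libraries, which was under 1% of the smaller library in every pair. The library labelled VitA-Col1a1- held Col1a1 at 1062 CPM, above the 958 CPM of VitA- DEN+WAD, so its label and its RNA do not match and no direction is drawn from the Col1a1- label. Its counts were also made with a later version of the counting software than those of the other 4 libraries, and this cannot be told apart from the gate. Ptprc, the leukocyte antigen CD45, had 0 UMIs in each of the 4 Col1a1+ libraries and 9342 in that library.

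The family lies on 6 chromosomes in the GENCODE M21 annotation of GRCm38, and all 7 are annotated as protein-coding genes. Pdgfra (ENSMUSG00000029231) spans chr5:75152292-75198215 on the plus strand, and Pdgfa (ENSMUSG00000025856) lies on the minus strand of the same chromosome at chr5:138976014-138997370. Pdgfrb (ENSMUSG00000024620) is on chromosome 18 from 61045150 to 61085061, and the gene for the macrophage receptor Csf1r starts 15536 bases beyond its end on the same strand. Csf1r had between 4 and 20 UMIs in each of the Col1a1+ libraries, where Pdgfrb had between 1490 and 36237. The others are Pdgfb (ENSMUSG00000000489) at chr15:79995874-80014977 on the minus strand, Pdgfc (ENSMUSG00000028019) at chr3:81036416-81214040, Pdgfd (ENSMUSG00000032006) at chr9:6168584-6378850 and Pdgfrl (ENSMUSG00000031595) at chr8:40926212-40990785, these last 3 on the plus strand. An antisense gene overlaps the start of Pdgfa, on the strand that 3' counting keeps apart.

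Sequence upstream of the annotated start was in the RefSeq promoter table of GRCm38.p6 for 4 of the 7 genes. The 250 bases before the start are shown for 1 receptor and 1 ligand among these 4, and those of Pdgfa and Pdgfd are not shown. Capitals mark matches on either strand to the GC box, GGGCGG, to which SP-family factors bind, and to the CArG box, the motif of serum response factor, which with myocardin drives contractile genes such as Acta2.

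Pdgfra, chr5:75152001-75152250, plus strand: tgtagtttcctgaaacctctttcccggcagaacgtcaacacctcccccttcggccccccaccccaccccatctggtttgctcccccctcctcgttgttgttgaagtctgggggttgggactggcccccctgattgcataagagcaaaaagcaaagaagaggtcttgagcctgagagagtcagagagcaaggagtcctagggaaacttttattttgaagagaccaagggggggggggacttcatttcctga

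Pdgfc, chr3:81036166-81036415, plus strand: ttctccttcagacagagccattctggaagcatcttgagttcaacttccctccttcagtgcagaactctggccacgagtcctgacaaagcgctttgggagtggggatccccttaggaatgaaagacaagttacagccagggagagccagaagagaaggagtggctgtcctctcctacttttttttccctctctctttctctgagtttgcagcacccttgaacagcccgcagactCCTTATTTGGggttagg

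The Pdgfc window held 1 CArG box, as did 1.47% of the 32851 promoters in the table in windows of the same length, and no GC box, which 32.7% of them held. The Pdgfra window held neither, and 54.4% of its bases were G or C against 50.8% for Pdgfc. Of the windows not shown, those of Pdgfa held 1 and 2 GC boxes and no CArG box, and that of Pdgfd held neither motif. These are matches of letters and say nothing of whether a factor binds there.

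Pdgfra and Pdgfrb were abundant in every library. Pdgfra, the alpha receptor, stood at 168 CPM in VitA+ DEN+WAD, 158 in VitA- DEN+WAD, 195 in VitA+ chow, 237 in VitA- chow and 81.7 in the library labelled VitA-Col1a1-. Pdgfrb, the beta receptor and the classic marker of pericytes, stood at 242, 224, 242, 399 and 243 CPM in the same order. VitA- chow was the highest library for both receptors, and the library labelled VitA-Col1a1- was the lowest for Pdgfra but not for Pdgfrb. In the order of Pdgfrb levels, the counting intervals of VitA+ DEN+WAD (239 to 244), VitA+ chow (230.3 to 255) and the library labelled VitA-Col1a1- (240.2 to 246) overlapped.

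These are counts of transcript ends, so gene length does not enter, but capture may differ between genes, and levels are compared between genes only in this sense. Among the ligands, Pdgfa was the most abundant in each of the 5 libraries and Pdgfb or Pdgfc the least. Pdgfa was at 36.8 CPM in VitA+ DEN+WAD, 112 in VitA- DEN+WAD, 44.7 in VitA+ chow, 249.7 in VitA- chow and 66.3 in the library labelled VitA-Col1a1-. Pdgfd followed at 13.6, 27.9, 19.2, 37.9 and 16.9 CPM. Both were higher in the VitA- gate than in the VitA+ gate of the same treatment, and both were highest in VitA- chow.

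Pdgfb was scarce in the sorted Col1a1+ cells, at 0.367, 3.46, 0.651 and 1.73 CPM in the same order, and reached 23.6 CPM in the library labelled VitA-Col1a1-. Those levels rest on 55, 165, 4, 26 and 2496 UMIs. Pdgfc was as scarce, at 0.233, 2.31, 1.30, 4.27 and 5.55 CPM from 35, 110, 8, 64 and 586 UMIs. Pdgfrl, the receptor-like gene, was at 12.3, 46.2, 12.9, 73.8 and 24.8 CPM, the same order of libraries as Pdgfa: lowest in the VitA+ gate and highest in VitA- chow.

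**Figure D1:**
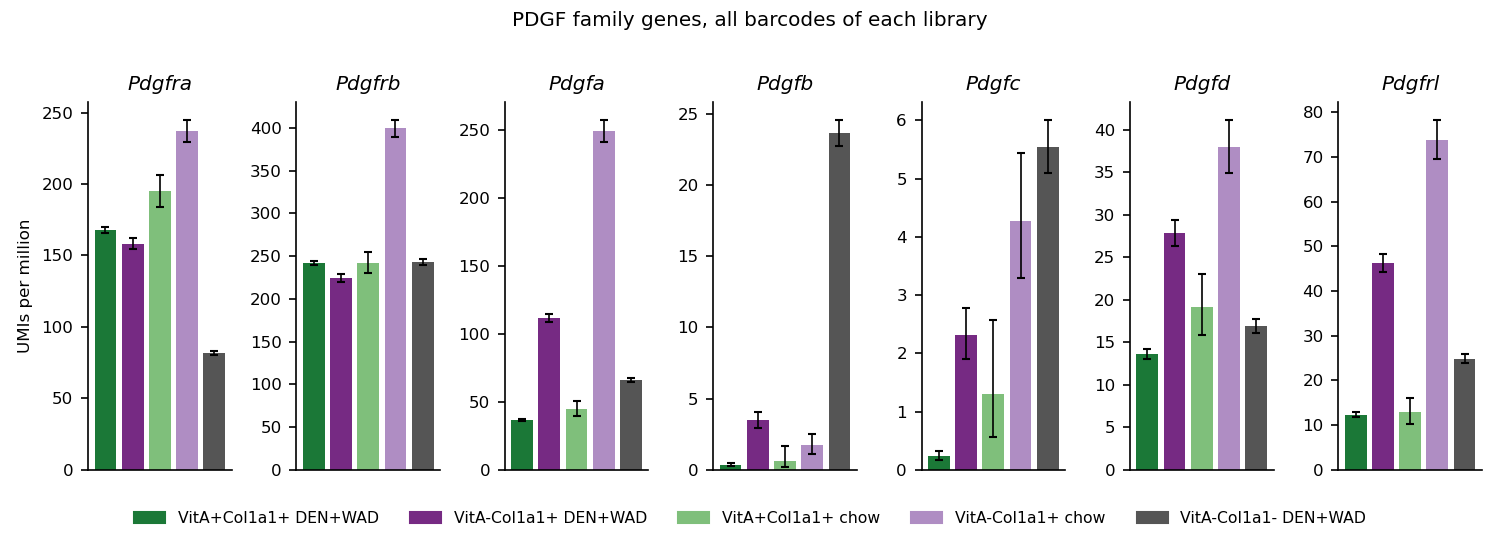
Levels of the 7 genes in CPM over all barcodes of each library, 1 bar per library and a separate axis per gene, with exact Poisson 95% intervals. Pdgfa and Pdgfrl share the pattern of higher bars in the VitA-Col1a1+ libraries, and Pdgfb stands out only in the library labelled VitA-Col1a1-.

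Which cells held these RNAs was asked by presence of a class gene: cells with at least 1 UMI of Lrat (vitamin A storage, HSC), Pecam1 (endothelium) or C1qa (macrophages) and none of the other 2. Lrat-positive cells numbered 10039, 1767, 233, 466 and 3065 in the 5 libraries in the order above. Pecam1-positive cells numbered 148, 382, 9, 37 and 1614, and C1qa-positive cells reached 20 only in the library labelled VitA-Col1a1-, with 1055. In that library 26.3% of barcodes held UMIs of more than 1 class gene and were left out of the classes, against 1.30% to 5.68% in the other 4. Many Lrat-positive cells also held Myh11, a smooth muscle gene. Of 466 mesenchymal cells (defined below) with Lrat in VitA- chow, 81 without and 63 with Thy1 or Fbln2 had no Myh11 UMI. In the library labelled VitA-Col1a1- these were 1486 and 211 of 2982.

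Both receptors were higher in Lrat-positive cells than in Pecam1-positive or C1qa-positive cells. Pdgfra was at 170.3, 173, 205, 251 and 145 CPM in the Lrat-positive cells of the 5 libraries, and Pdgfrb at 245, 255, 251, 445 and 452 CPM. In Pecam1-positive cells, Pdgfra was at 0.778 CPM in VitA+ DEN+WAD (1 UMI), 29.4 in VitA- DEN+WAD, 3.25 in VitA- chow (2 UMIs) and 3.89 in the library labelled VitA-Col1a1-. Of Pecam1-positive cells, those with a Pdgfra UMI made up 0.676% to 10.7%, at median depths of 7747.5 to 17268 UMIs, against 64.6% to 94.8% of Lrat-positive cells. Cells with none of the 3 class genes also held both receptors. Pdgfra was at 61.4, 212, 226 and 57.3 CPM in the 158, 424, 147 and 1538 such cells of VitA+ DEN+WAD, VitA- DEN+WAD, VitA- chow and the library labelled VitA-Col1a1-, and Pdgfrb at 209, 277, 333 and 156 CPM.

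Pdgfrb in Pecam1-positive cells had 0 UMIs in VitA+ DEN+WAD and stood at 19.1, 13.0 and 9.04 CPM in VitA- DEN+WAD, VitA- chow and the library labelled VitA-Col1a1-. With the barcodes of more than 1 class gene kept in, Pecam1-positive cells held Pdgfra at 27.7 to 126 CPM and Pdgfrb at 71.1 to 127 CPM, so the size of this contrast rests on leaving them out. C1qa-positive cells held Pdgfra at 10.8 CPM and Pdgfrb at 28.5 CPM. In them Pdgfra made 27.4% of receptor UMIs (23.4 to 31.7), against 25.2% over that whole library. In the Pecam1-positive cells of VitA- DEN+WAD it made 60.5% of receptor UMIs (54.4 to 66.4), against 41.4% over that library. It made 72.5% (64.8 to 79.4) in the 364 of these cells that also had Stab2 or Lyve1, genes of sinusoidal endothelium. Free RNA and cells caught together were not tested as the source of these counts.

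With barcodes of more than 1 class gene left out, Pdgfb was higher in C1qa-positive and Pecam1-positive cells than in Lrat-positive cells. It stood at 68.7 CPM (64.0 to 73.5) in C1qa-positive cells and 34.3 CPM (31.2 to 37.7) in Pecam1-positive cells of the library labelled VitA-Col1a1-, and at 0.892 CPM in its Lrat-positive cells. Pecam1-positive cells of VitA+ DEN+WAD, VitA- DEN+WAD and VitA- chow held it at 25.7, 17.9 and 30.8 CPM. In Lrat-positive cells of the 4 Col1a1+ libraries it had 5, 5, 0 and 1 UMIs in all, and the 5 in VitA+ DEN+WAD came from 1 cell. The few Pecam1-positive cells caught in the Col1a1+ gates therefore carried 60.0%, 59.4% and 73.1% of the Pdgfb UMIs of VitA+ DEN+WAD, VitA- DEN+WAD and VitA- chow.

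The C1qa-positive cells held Pdgfa and Pdgfc beside Pdgfb. Pdgfa was at 67.2 CPM (62.6 to 72.0) and Pdgfc at 17.8 CPM (15.5 to 20.4) in them, and Pdgfd at 3.19 CPM. Those with a UMI of Clec4f, a gene of resident Kupffer cells, had more Pdgfb (76.7 against 58.6 CPM) and more Pdgfc (23.3 against 11.0 CPM) than those without, with no overlap of counting intervals, while Pdgfa was at 63.4 and 71.8 CPM with overlapping intervals. The cells without Clec4f had the lower median depth, 4636 against 9884 UMIs, and more Col1a1, 472 against 80.0 CPM. This split was made after the values were seen.

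Pdgfd was shared between mesenchyme and endothelium. Its level in Pecam1-positive cells was 12.4, 22.6, 26.0 and 22.8 CPM in VitA+ DEN+WAD, VitA- DEN+WAD, VitA- chow and the library labelled VitA-Col1a1-, and 13.6, 26.8, 39.8 and 21.5 CPM in Lrat-positive cells of the same libraries. The intervals of the 2 classes overlapped in all of these libraries. Pdgfrl stayed with the mesenchyme, at 12.3 to 77.5 CPM in Lrat-positive cells and at most 7.82 CPM in C1qa-positive or Pecam1-positive cells of any library.

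**Figure D2:**
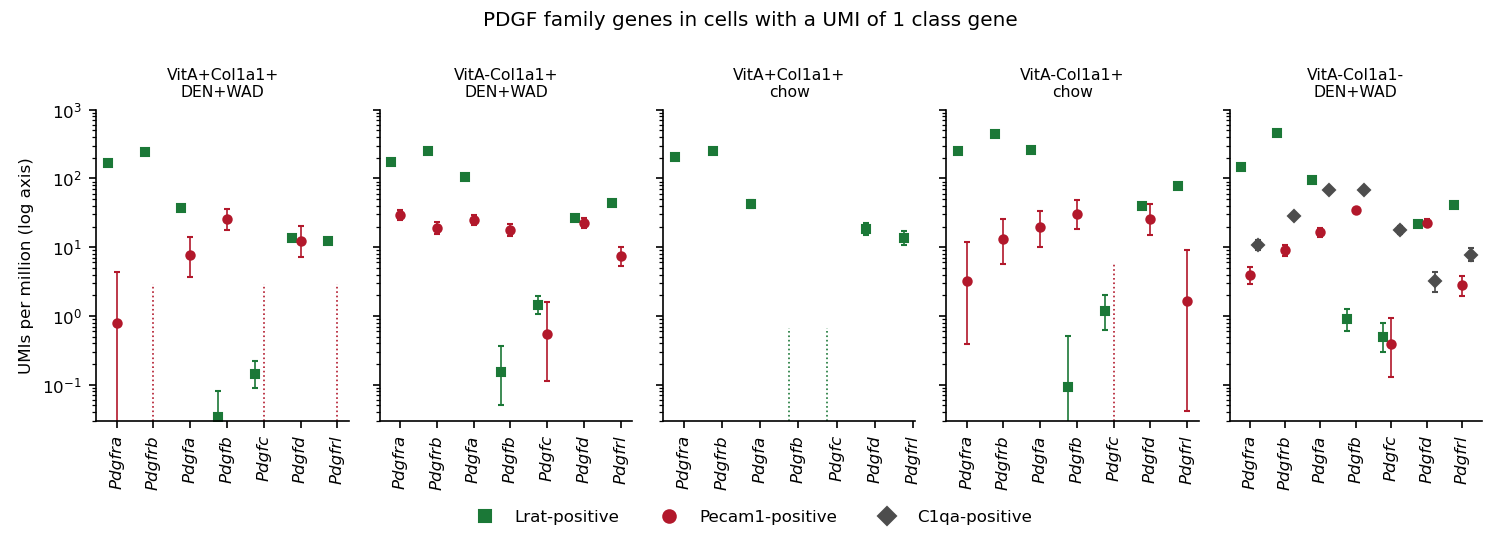
Levels in CPM, on a log axis, in Lrat-positive (squares), Pecam1-positive (circles) and C1qa-positive (diamonds) cells of each library, for classes of at least 20 cells. Bars are exact Poisson 95% intervals, and a dotted line runs up to the upper limit of a gene with 0 UMIs: Pdgfb is the gene for which squares lie below circles and diamonds.

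Cells with UMIs of both Krt19 and Epcam, genes of bile duct epithelium, were few but rich in ligands, and were looked at after the values were seen. There were 23 in VitA+ DEN+WAD and 58 in the library labelled VitA-Col1a1-, with 11, 2 and 3 in the other libraries. In those first 2 libraries they held Pdgfa at 345 and 177 CPM, Pdgfc at 87.2 and 70.1 CPM and Pdgfd at 79.6 and 90.7 CPM, and no UMI of Pdgfrl. These cells carried 23 of the 35 Pdgfc UMIs of VitA+ DEN+WAD and all 8 of VitA+ chow, where they were 2 cells.

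The first comparison asked what differed after DEN+WAD in VitA+ cells, the gate of stellate cells. Pdgfrb was level, with a ratio of DEN+WAD to chow of 0.997 (0.946 to 1.05), a log2 ratio of -0.00. Pdgfra was lower after DEN+WAD, 168 against 195 CPM, a ratio of 0.862 (0.814 to 0.914) and a log2 ratio of -0.21. Pdgfa at a ratio of 0.822 (0.728 to 0.932) and Pdgfd at 0.710 (0.590 to 0.862) were lower by more than counting error, and Pdgfrl at 0.955 (0.762 to 1.21) was not. Of the 275 Pdgfa UMIs in chow, 28 came from the 2 cells with Krt19 and Epcam, and without such cells the Pdgfa ratio was 0.895 (0.788 to 1.02), within counting error of no difference. In sums over a library, fewer cells that express a gene and less RNA per cell cannot be told apart. Over all 14355 genes with at least 20 UMIs in the 2 libraries together, the median log2 ratio was -0.10, against -0.28 for the 7 genes.

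Of the 7, none was at least 2-fold higher and 1 at least 2-fold lower after DEN+WAD in this gate, beside 4.24% and 10.9% of all genes tested. That gene was Pdgfc, at a ratio of 0.179 (0.0817 to 0.447), and its chow value was the 8 UMIs of the 2 Krt19 and Epcam cells. Without such cells Pdgfc had 12 UMIs after DEN+WAD and 0 in chow, and no lower level was left. Pdgfb had 55 and 4 UMIs, a ratio of 0.564 with an interval of 0.208 to 2.14, so no difference was detectable at this depth. Without the Krt19 and Epcam cells it had 50 and 1 UMIs, a ratio of 2.04 (0.349 to 82.1) in the other direction.

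Scaling bears on the receptors here. With edgeR's TMM factors the Pdgfra log2 ratio was -0.03 and that of Pdgfrb 0.18, and with DESeq2 size factors -0.09 and 0.12. Both scalings moved the median of all genes, to 0.09 and 0.03. A scaling factor shifts both receptors alike, so Pdgfra relative to Pdgfrb is the same under any scaling and is not checked by it.

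In VitA- cells, the gate that takes in portal fibroblasts, smooth muscle and HSC low in vitamin A, 6 of the 7 genes were lower after DEN+WAD. Pdgfra was at 158 against 237 CPM, a ratio of 0.668 (0.641 to 0.695), and Pdgfrb at 224 against 399 CPM, a ratio of 0.562 (0.544 to 0.580). Pdgfa was at 112 against 249.7 CPM, a ratio of 0.448 (0.430 to 0.467) and a log2 ratio of -1.16. Pdgfrl followed at 0.627 (0.583 to 0.674), Pdgfd at 0.734 (0.665 to 0.811) and Pdgfc at 0.541 (0.394 to 0.748). In Lrat-positive cells of this gate Pdgfc had 47 UMIs after DEN+WAD and 13 in chow, a ratio of 1.23 (0.656 to 2.48) in the other direction. The median log2 ratio was -0.67 for the 7 genes and -0.02 for the 14367 genes tested.

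Pdgfb went the other way, at 3.46 against 1.73 CPM, a ratio of 2.00 (1.32 to 3.15) that lay just under 2-fold before rounding and was 2.22 (1.42 to 3.65) without cells with Krt19 and Epcam. Pecam1, the endothelial class gene, moved with it, at 92.4 against 26.9 CPM, and Pecam1-positive cells were 382 of 2729 barcodes after DEN+WAD and 37 of 668 in chow. Within Pecam1-positive cells Pdgfb was not higher after DEN+WAD, at 17.9 CPM (14.5 to 21.8) against 30.8 CPM (18.6 to 48.2). By the 2-fold rule 1 gene, Pdgfa, was lower and 0 were higher in this gate, beside 7.95% and 8.66% of all genes tested.

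**Figure D3:**
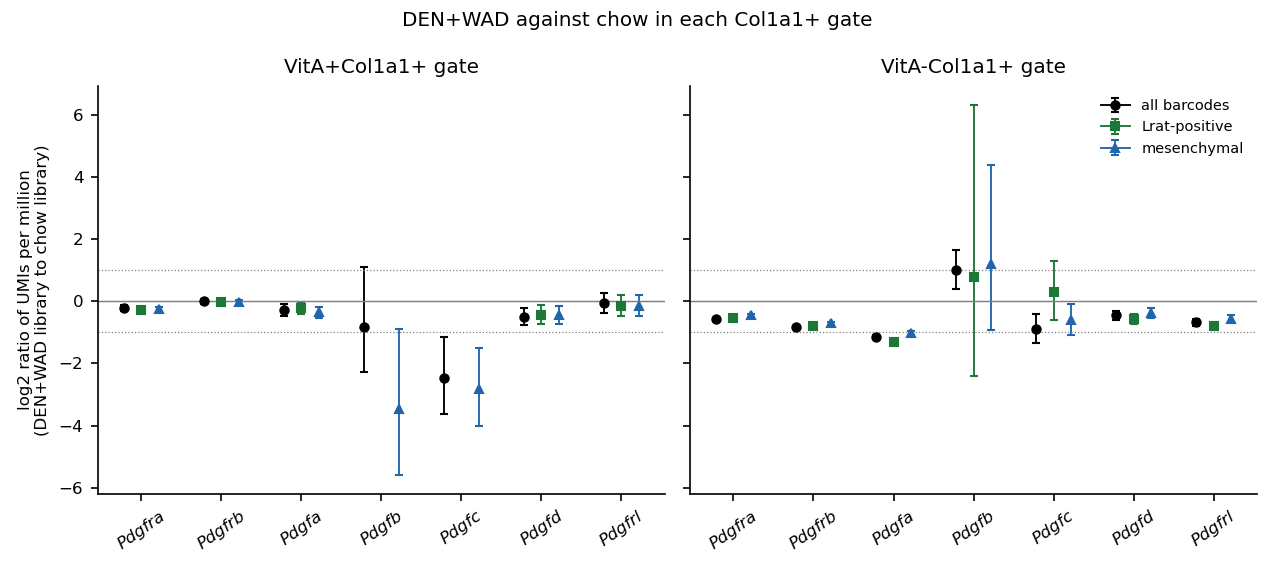
Log2 ratio of the DEN+WAD library to the chow library in each Col1a1+ gate, over all barcodes (circles), Lrat-positive cells (squares) and mesenchymal cells (triangles), with exact 95% intervals; genes with 0 UMIs in either library are left out and dotted lines mark 2-fold. In the VitA+ gate both receptors lie close to 0, and in the VitA- gate every gene except Pdgfb lies below 0 over all barcodes.

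The make-up of the VitA- gate differed between the libraries. Mesenchymal cells were taken as those with at least 3 of 10 mesenchymal genes and no UMI of Pecam1, C1qa or Ptprc, which gave 10161, 2139, 236, 602 and 3631 cells in the order of libraries above. Myh11, the smooth muscle myosin, was present in 27.9% of them in VitA- DEN+WAD and in 68.1% in VitA- chow, at median depths of 17398 and 22469 UMIs. Thy1 or Fbln2, genes of portal fibroblasts, were present in 16.8% and 42.9%. Whether mice given DEN+WAD had fewer such cells or the sort took fewer cannot be told apart.

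Within mesenchymal cells without Myh11, Pdgfra was at 201 CPM after DEN+WAD and 376 in chow, a ratio of 0.535 (0.506 to 0.565), and Pdgfrb at 214 and 328 CPM, a ratio of 0.652 (0.616 to 0.691). Pdgfa was at 99.9 and 255 CPM in these cells, a ratio of 0.392 (0.366 to 0.421). In cells with Myh11 the log2 ratios were smaller, -0.47 for Pdgfra, -0.38 for Pdgfrb and -0.47 for Pdgfa. These genes were lower after DEN+WAD on both sides of the Myh11 split, which was added after the values were seen. The part of gate make-up in the lower levels was not tested.

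Between gates of the same treatment, 5 of the 7 genes were at least 2-fold higher in VitA- than in VitA+ cells after DEN+WAD, beside 18.7% of all genes, and 4 of 7 in chow, beside 15.3%. Pdgfa was 5.58-fold higher in chow (4.94 to 6.33) and 3.04-fold after DEN+WAD (2.93 to 3.16), and Pdgfrl 5.74-fold and 3.77-fold. Pdgfc and Pdgfb were the other genes past 2-fold in both, with Pdgfb in chow resting on 26 and 4 UMIs (ratio 2.66, 0.924 to 10.5), and Pdgfd passed after DEN+WAD alone, at 2.04-fold against 1.98-fold in chow. The receptors differed less. Pdgfrb was 1.65-fold higher in the VitA- gate in chow (1.56 to 1.74) and slightly lower in it after DEN+WAD, at a ratio of 0.929 (0.909 to 0.949).

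The balance of the 2 receptors was read as the share of Pdgfra in the sum of Pdgfra and Pdgfrb UMIs. Since capture may differ between the 2 genes, the share is used only to compare cells. In mesenchymal cells Pdgfra made 41.0% of receptor UMIs in VitA+ DEN+WAD (40.6 to 41.4), 41.0% in VitA- DEN+WAD (40.3 to 41.8), 45.0% in VitA+ chow (43.1 to 46.9), 36.9% in VitA- chow (35.9 to 37.9) and 24.5% in the library labelled VitA-Col1a1- (24.0 to 25.1). In captured UMIs Pdgfrb was the larger of the 2 in every library, and the shares in the DEN+WAD libraries of the 2 Col1a1+ gates lay within counting error of each other.

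In both gates the share was lower where Myh11 was present. It was 32.9% with Myh11 against 43.2% without in VitA+ DEN+WAD, and 37.1% against 48.0% in VitA+ chow. In the VitA- gate it was 27.1% against 48.5% in VitA- DEN+WAD and 28.3% against 53.4% in VitA- chow, and it was 14.7% against 36.3% in the library labelled VitA-Col1a1-. In none of the 5 libraries did the counting intervals of the 2 sets overlap.

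In the VitA- gate the direction of the DEN+WAD difference depended on how the cells were split. Over all mesenchymal cells the Pdgfra share was 4.18 percentage points higher after DEN+WAD than in chow. Without Myh11 it was lower, 48.5% (47.5 to 49.4) against 53.4% (51.6 to 55.2), and with Myh11 it was 27.1% (26.0 to 28.3) against 28.3% (27.2 to 29.5), which overlapped. With 3 or more Myh11 UMIs it was lower, 18.7% (17.5 to 20.0) against 22.2% (20.9 to 23.4). With 0 to 2 Myh11 UMIs it was also lower, 47.1% (46.3 to 48.0) against 49.9% (48.5 to 51.3). Myh11 was present in 27.9% of these cells after DEN+WAD and 68.1% in chow, and its part in the pooled value was not tested. In the VitA+ gate the share was 4.01 points lower after DEN+WAD over all mesenchymal cells and lower without Myh11, while with Myh11 the intervals overlapped.

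Acta2, the actin of smooth muscle, also marks activated HSC. It ordered the share in the same way, in bins chosen after the values were seen. In cells with 0 Acta2 UMIs Pdgfra made 42.4% of receptor UMIs in VitA+ DEN+WAD, 48.4% in VitA- DEN+WAD, 47.0% in VitA- chow and 40.9% in the library labelled VitA-Col1a1-. With 10 or more Acta2 UMIs it was 24.9%, 19.1%, 16.4% and 13.5% in the same libraries. Both genes took part: in VitA- chow Pdgfra was at 343 CPM without Acta2 and 99.8 CPM with 10 or more, and Pdgfrb at 386 and 510 CPM. VitA+ chow had 226 cells without Acta2, at 46.2%, and too few cells with it to give a value. In the VitA- gate the share at 10 or more Acta2 UMIs was higher after DEN+WAD than in chow. The intervals were just apart, 17.80 to 20.4 against 15.0 to 17.75. At 0 Acta2 UMIs, and at 1 to 9 with 44.2% against 44.5%, the intervals overlapped. These bins thus did not show the lower share seen with the Myh11 split.

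Col1a1 gave no single order of the share over the libraries. Across bins of 0, 1 to 4, 5 to 19 and 20 or more Col1a1 UMIs, the Pdgfra share was 42.8%, 43.2%, 36.9% and 30.2% in VitA+ DEN+WAD and 48.3%, 45.1%, 40.3% and 38.8% in VitA- DEN+WAD. It was 32.6%, 30.6%, 22.4% and 24.1% in the library labelled VitA-Col1a1-. In VitA+ chow the bins of 0, 1 to 4 and 5 to 19 gave 48.5%, 42.6% and 42.0%. In VitA- chow the bins of 1 to 4, 5 to 19 and 20 or more gave 30.7%, 27.0% and 39.5%. There the top bin lay above the bin of 5 to 19, with intervals that did not overlap. Pdgfrl followed collagen in the 4 libraries with cells in the top bin, at 8.39 CPM in cells with 0 Col1a1 UMIs and 31.9 CPM in those with 20 or more in VitA+ DEN+WAD, 15.5 and 84.1 CPM in VitA- DEN+WAD, and 6.09 and 71.8 CPM in the library labelled VitA-Col1a1-. In VitA- chow it was at 34.7 CPM with 1 to 4 Col1a1 UMIs and 86.7 CPM with 20 or more. Deeper cells fall more often into high bins of Acta2 and Col1a1, and depth was not held fixed here.

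**Figure D4:**
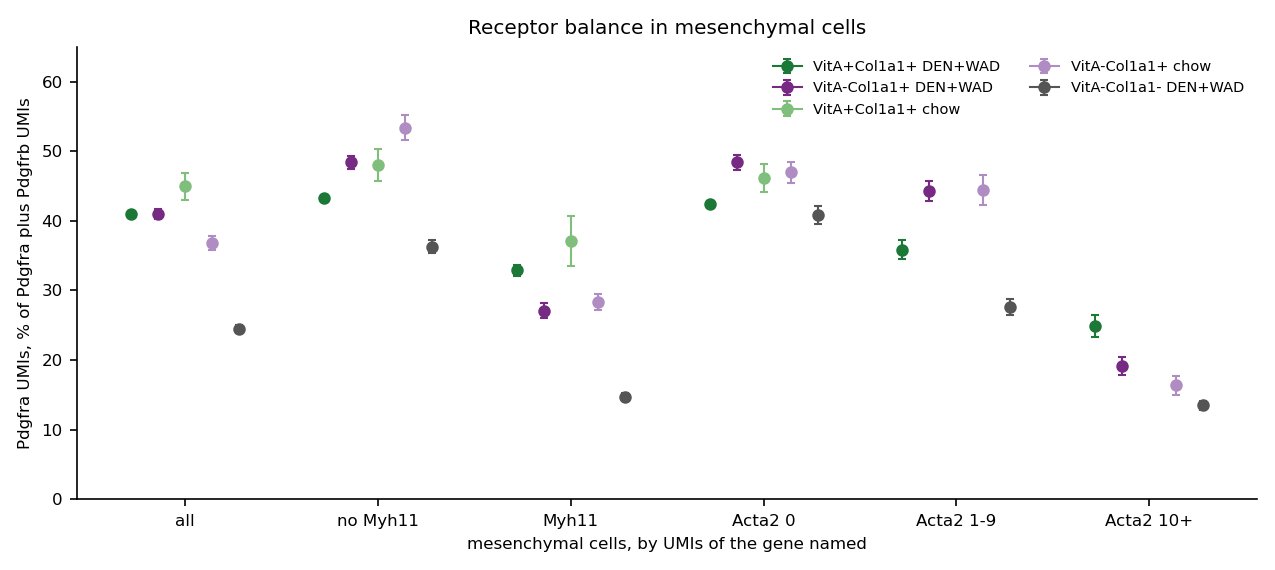
Pdgfra UMIs as a percentage of Pdgfra plus Pdgfrb UMIs in mesenchymal cells of each library, over all of them and by presence of Myh11 or UMIs of Acta2, with exact 95% intervals, for sets of at least 20 cells. Cells with Myh11 lie below those without in all 5 libraries, and cells with 10 or more Acta2 UMIs lie between 13.5% and 24.9%.

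Cells with Thy1 or Fbln2 and neither Lrat nor Myh11 leaned to the alpha receptor in the VitA-Col1a1+ gate. Pdgfra made 55.3% of receptor UMIs (51.8 to 58.8) in 71 such cells of VitA- DEN+WAD and 65.3% (60.7 to 69.7) in 29 of VitA- chow, against 54.6% (51.6 to 57.7) in the 161 cells of VitA- DEN+WAD that lacked Lrat, Thy1, Fbln2 and Myh11. In 64 such cells of the library labelled VitA-Col1a1- it was 30.5% (26.2 to 35.2). Their Pdgfa and Pdgfc were at 248 and 28.5 CPM in VitA- DEN+WAD and 331 and 25.7 CPM in VitA- chow. Over all mesenchymal cells Pdgfa was at 127 and 258 CPM there. These cells held 40.9% and 31.2% of the Pdgfc UMIs of the 2 libraries.

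Lrat-positive cells with neither Thy1, Fbln2 nor Myh11 were the largest set in 4 of the libraries. Their Pdgfra share was 43.5% in VitA+ DEN+WAD, 46.9% in VitA- DEN+WAD, 48.2% in VitA+ chow, 52.1% in VitA- chow and 37.4% in the library labelled VitA-Col1a1-. Their Pdgfra level was 174, 183, 209, 352 and 197 CPM, and that of Pdgfa 35.9, 65.2, 46.5, 200.3 and 67.8 CPM. The VitA- chow value rests on 81 cells, and in the VitA- gate cells of this kind were higher in chow than after DEN+WAD for both genes.

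At the level of single cells the share was broad. Among mesenchymal cells with at least 5 receptor UMIs the median Pdgfra share was 40.0% in both DEN+WAD libraries of the Col1a1+ gates, 43.7% in VitA+ chow, 33.3% in VitA- chow and 20.0% in the library labelled VitA-Col1a1-. Its SD over cells was 22.8, 25.5, 21.9, 25.3 and 23.0 percentage points in the usual order, against 18.2, 16.8, 15.8, 13.4 and 14.5 points that binomial counting alone would give at one common share. The 2 SDs lay closest together in VitA+ DEN+WAD. No Pdgfra UMI was found in 5.64%, 8.06%, 2.38%, 9.48% and 21.9% of these cells, and no Pdgfrb UMI in 1.60%, 2.51%, 0.952%, 0.929% and 0.719%.

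**Figure D5:**
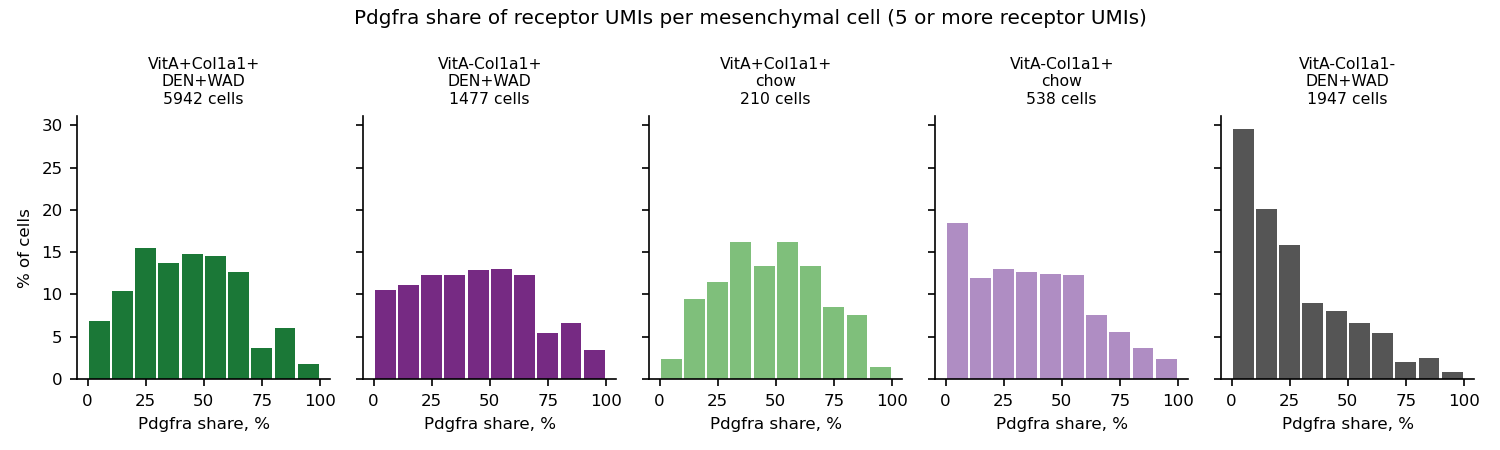
Distribution over mesenchymal cells with at least 5 receptor UMIs of the Pdgfra share of receptor UMIs, in bins of 10 percentage points, as a percentage of the cells of each library. In VitA- chow and the library labelled VitA-Col1a1- the lowest bin is the tallest, and in the other 3 libraries it is not.

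Presence of the receptors depends on depth, so cells were compared as if each were thinned to 2000 UMIs. Both receptors were then expected in 10.4% of mesenchymal cells in VitA+ DEN+WAD (9.82 to 11.0), 10.3% in VitA- DEN+WAD (8.98 to 11.6), 12.1% in VitA+ chow (8.10 to 16.8), 17.3% in VitA- chow (14.4 to 20.6) and 13.0% in the library labelled VitA-Col1a1- (11.9 to 14.3). Pdgfra without Pdgfrb was expected in 17.9%, 18.4%, 20.5%, 16.6% and 11.7%, and Pdgfrb without Pdgfra in 26.2%, 26.4%, 25.3%, 35.5% and 39.0%. At full depth both were found in 76.1%, 76.4%, 92.4%, 83.4% and 53.4% of mesenchymal cells. In Pecam1-positive cells thinned in the same way any Pdgfra was expected in at most 2.86%.

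Among genes of the pathway outside the family, the receptor-proximal list of 20 adaptors, kinases and transcription factors that dock on or act next to activated receptors had no gene past 2-fold in either gate. Beside this, 4.24% of all genes tested were higher and 10.9% lower in the VitA+ gate, and 8.66% and 7.95% in the VitA- gate. Its median log2 ratio was -0.38 in the VitA+ gate and -0.07 in the VitA- gate, where all genes tested had -0.10 and -0.02. The genes nearest to 2-fold were Fyn, a Src-family kinase, at 0.505-fold in the VitA+ gate, and the same gene at 1.56-fold in the VitA- gate.

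The 7 genes of ligand processing, proteases that mature the ligands and an inhibitor, had 2 higher and 1 lower past 2-fold in the VitA+ gate, and 0 higher and 1 lower in the VitA- gate. Of all genes tested, 4.24% were higher and 10.9% lower in the VitA+ gate, and 8.66% and 7.95% in the VitA- gate, which holds for each list below. Plat, tissue plasminogen activator, which cleaves latent PDGF-C, was at 46.7 against 13.3 CPM in the VitA+ gate, a ratio of 3.50 (2.82 to 4.41), and at 82.5 against 101 CPM in the VitA- gate. Pcsk6, a proprotein convertase, was at 2.75 against 1.14 CPM in the VitA+ gate, where chow had 7 UMIs, and at 44.0 against 115 CPM in the VitA- gate. St14, matriptase, which also cleaves PDGF ligands, had 16 UMIs after DEN+WAD and 8 in chow in the VitA+ gate, a ratio of 0.0820 (0.0331 to 0.221). Epcam was also lower in this gate, at 1.35 against 5.37 CPM. The part of cells with Krt19 and Epcam in the St14 value was not tested.

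Of 6 co-receptors and scaffolds of the receptors, 1 was at least 2-fold lower in each gate, beside 10.9% and 7.95% of all genes, and none higher. Nrp2, a neuropilin, was at 11.6 against 32.7 CPM in the VitA+ gate, and Cspg4, the NG2 proteoglycan of pericytes, at 4.30 against 12.7 CPM in the VitA- gate. Among 10 negative regulators none passed in the VitA+ gate, and Spry2, at 142 against 305 CPM, and Lrig1, at 8.84 against 18.7 CPM, were at least 2-fold lower in the VitA- gate, beside 7.95% of all genes. Spry1, the most abundant Sprouty here, was within 2-fold in both, at 545 against 479.5 CPM and 521 against 447 CPM.

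Of 7 relatives, the other class III receptors and their ligands, Flt3 had 0 UMIs in all 4 libraries and was not tested. Kit was at 2.13 against 13.3 CPM in the VitA+ gate and 30.1 against 25.9 CPM in the VitA- gate, and Csf1r had 20 and 4 UMIs in the VitA+ gate, so that 2 of 6 were lower there, beside 10.9% of all genes, and 0 of 6 were past 2-fold in the VitA- gate. Kit lay with Pecam1 in the VitA+ gate: of its 82 UMIs in chow, 52 were in 9 Pecam1-positive cells and 29 in 12 barcodes with more than 1 class gene. Mesenchymal cells of this gate held 7 Kit UMIs after DEN+WAD and 1 in chow. Pecam1 was at 8.42 against 17.9 CPM there, and its part in the Kit difference was not tested. Among 9 activation genes, 4 were at least 2-fold higher in the VitA+ gate, beside 4.24% of all genes. They were Timp1 at 79.0 against 1.46 CPM, Acta2 at 108 against 10.4 CPM, Lox at 7.07 against 0.976 CPM and Col1a1 at 304 against 99.4 CPM, where Timp1 and Lox had 9 and 6 UMIs in chow. In the VitA- gate Acta2, at 634 against 1299 CPM, and Lox, at 31.1 against 86.2 CPM, were at least 2-fold lower, beside 7.95% of all genes. In this gate Myh11 was present in 27.9% of mesenchymal cells after DEN+WAD and 68.1% in chow. The part of smooth muscle cells in these values was not tested. Beside these values, Pdgfrb was level and Pdgfra at 0.862-fold in the VitA+ gate, where Acta2 and Timp1 were higher.

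Genes whose levels were most like those of a member were sought over 9 pairs of class and library with at least 50 cells, by Pearson's r of log2(CPM + 1) among 8744 genes that reached 20 CPM in at least 1. They were Vasn, Mapk8ip1 and B3gnt9 for Pdgfra (r of 0.993 for each), Snhg18, Ndufa4l2 and Casc4 for Pdgfrb (0.997, 0.991 and 0.990), Prdm1, St8sia4 and Pla2g7 for Pdgfb (0.995, 0.995 and 0.994) and Tcea3, Osbpl1a and Aldh18a1 for Pdgfa (0.982, 0.978 and 0.972). The points of a class share their cell type and those of a library their depth and free RNA, so r is given as a description with no test.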

How the data were processed

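Per the labels and methods, the authors made 10x Genomics 3' libraries from sorted liver cells, aligned reads to mm10 and counted UMIs with Cell Ranger. File headers name version 3.1.0 for the 4 Col1a1+ libraries and 6.1.2 for the library labelled VitA-Col1a1-, and the labels name conflicting kit versions. The deposited values were raw counts per gene and barcode, whole numbers with no normalization, and all barcodes were used. No doublet caller was run; cells with more than 1 class gene were left out of classes, and leaving out deep barcodes was an alternative.

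UMIs were summed over cells and scaled to 1000000. Levels carry exact Poisson, ratios conditional binomial and shares Clopper-Pearson 95% intervals. With 1 library per group there was no test. A gene was called past 2-fold at a log2 ratio of 1 or more, among genes with at least 20 UMIs in the 2 libraries, and a 0 was set to 3 UMIs. Thinned shares are expected values from the hypergeometric distribution, and their intervals use the expected number of cells rounded. The 10 mesenchymal genes were Dcn, Col3a1, Col1a2, Lrat, Colec11, Ecm1, Reln, Des, Bgn and Lum. Classes and sets needed 20 cells.

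Named genes were all 7 members, the class genes, up to 3 genes per direction and gate from each of 6 pathway lists past 2-fold, and the 3 genes most like each of 4 members; Fyn, Spry1, Col1a1 and Ptprc, and the genes used for later splits, were named after their values were seen. The members, lists and marker sets were chosen with earlier results of these data known. Alternatives were TMM factors of edgeR 4.0.16, size factors of DESeq2 1.42.0, means over cells, other cell sets, depth filters and other class rules. Python 3.11.15, numpy 2.4.6 and scipy 1.17.1 were used, and scripts were tested on simulated counts. The 5 libraries held 149936344, 47633435, 6145748, 14996899 and 105670468 UMIs.

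The marker lists gave the following summed levels. Stellate genes ran from 4634 to 25475 CPM, portal fibroblast genes from 34.0 to 3425, smooth muscle genes from 459 to 4309 and endothelial genes from 257 to 1724. Macrophage genes were at most 2.87 CPM in the Col1a1+ libraries and 3552 CPM in the library labelled VitA-Col1a1-, T or NK genes at most 0.325 and 44.0, B or plasma genes at most 0.399 and 49.1, neutrophil genes at most 0.651 and 54.6, dendritic genes at most 0.861 and 9.88, plasmacytoid dendritic genes at most 0.0667 and 3.33, and erythroid genes at most 0.0667 and 868. Hepatocyte genes ran from 23.1 to 4649 CPM, cholangiocyte genes from 6.28 to 34.0, cycling genes from 8.54 to 58.9, platelet genes from 42.5 to 122 with Ppbp at 0 to 23 UMIs, and mesothelial genes reached 0.467.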

Additional observations from a re-analysis of the deposited data

Results flagged for a closer look

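The following values went in opposite directions after DEN+WAD in the VitA+ and VitA- gates. The difference between the gates was not tested, since each gate had 1 library per condition. Pdgfb had a log2 ratio of -0.83 in the VitA+ gate, where it had 4 UMIs in chow, 3 of them in the 2 cells with Krt19 and Epcam, and 0.999 in the VitA- gate. The VitA+ ratio had an interval of 0.208 to 2.14, and without the Krt19 and Epcam cells Pdgfb had 50 and 1 UMIs, a log2 ratio of 1.03 with a ratio of 2.04 (0.349 to 82.1), which was the same direction as in the VitA- gate. Acta2 stood at 3.37 and -1.04, Lox at 2.86 and -1.47, Pcsk6 at 1.27 and -1.39, Plat at 1.81 and -0.30, and Kit at -2.64 and 0.22. Of the 82 Kit UMIs of VitA+ chow, 52 were in 9 Pecam1-positive cells and 29 in 12 barcodes with more than 1 class gene, and Pecam1 was at 8.42 against 17.9 CPM in the VitA+ gate and 92.4 against 26.9 CPM in the VitA- gate. Its part in the Kit values was not tested. The Pdgfra share of receptor UMIs in mesenchymal cells differed from chow by -4.01 percentage points in the VitA+ gate and by 4.18 points in the VitA- gate. In the VitA- gate it was lower than in chow in cells without Myh11, while with at least 1 Myh11 UMI the intervals overlapped. With 10 or more Acta2 UMIs it was higher than in chow, 19.1% against 16.4%.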

How the results depend on the processing

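The other settings tried for each log2 ratio gave 96 values, of which 77 stayed within the counting interval of the value given above, 18 moved out of it and 1 turned direction. A turn was counted only where that interval left out no difference. Pdgfrb and Pdgfrl in the VitA+ gate, whose intervals held it, ran from -0.064 to 0.18 and from -0.16 to 0.12. Pdgfc in the VitA- gate turned, to 0.30 in Lrat-positive cells from 47 and 13 UMIs. In the VitA+ gate Pdgfra moved to -0.025 with TMM factors and -0.086 with DESeq2 size factors, and Pdgfrb to 0.18 and 0.12. In the VitA- gate Pdgfra moved to -0.50 with TMM factors and -0.45 in mesenchymal cells only, and Pdgfrb to -0.75 with TMM factors, -0.71 in mesenchymal cells and -0.95 as a mean over cells. Among alternatives chosen after seeing the data, mesenchymal cells with Myh11 gave -0.37 for Pdgfra and -0.10 for Pdgfrb in the VitA+ gate, where Pdgfa turned to 0.27, and -0.47 and -0.38 for the receptors in the VitA- gate, while those without Myh11 gave -0.90 and -0.62 in the VitA- gate. As means over cells of each cell's share, the Pdgfra share was 43.2% in VitA+ DEN+WAD, 43.3% in VitA- DEN+WAD, 35.7% in VitA- chow and 28.6% in the library labelled VitA-Col1a1-, and without the exclusion of other class genes it was 25.1% in that library. The cause was not tested. Counts of genes at least 2-fold lower, 1559 and 1142, came to 6631 and 4265 with every gene that had 1 UMI in either library. With cells of more than 1 class gene kept, receptor levels in Pecam1-positive cells came to 27.7 to 126 CPM for Pdgfra and 71.1 to 127 CPM for Pdgfrb, so the low values above rest on leaving those barcodes out. Over all members and classes, 38 of 70 class levels moved out of their counting intervals under this setting. The levels came to between 0.478 and 118 times the values given. No paired analysis was possible because each group held 1 library. The depth of VitA+ chow, 6145748 UMIs, limits Pdgfb and Pdgfc most.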
